A study of Mus musculus with 9 samples.

Results

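The genes described here are 31 transcripts of B cells and plasma cells, listed by name as B cell receptor, B cell identity and plasma cell genes. No threshold on a measured value picked them, but earlier results of these data were known when the list was made. All 31 have a row in the deposited table of 16165 genes, 25 of them assigned to B cells and 6 to plasma cells (Mzb1, Irf4, Prdm1, Sdc1, Tnfrsf17 and Igj). They were measured by RNA sequencing of total lung RNA in 3 groups of 3 libraries. The first group is TGFalpha mice kept on Dox (doxycycline) for 6 weeks, with pirfenidone, a drug used against fibrosis, in the final 3 weeks. The second is TGFalpha mice with the same Dox and vehicle in place of the drug, and the third is control mice with vehicle. The sample descriptions use the codes ST and Normal for the control libraries and BT and Dox for the TGFalpha libraries. What ST and BT stand for is not taken up here. In TGFalpha mice a transgene encodes the growth factor TGFα, which activates the EGF receptor. The labels of the control libraries name no Dox, so transgene and Dox cannot be told apart as the source of a difference from control lungs. No control mice with pirfenidone are among these samples, and strain, age and the promoter of the transgene are not stated in the labels. Nothing in the labels says that each library came from a separate mouse, so p-values measure the spread between these libraries.

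B cells sense antigen through a receptor made of membrane immunoglobulin and a signalling pair, CD79A and CD79B, and their identity is set by transcription factors such as PAX5 and EBF1. After activation, some B cells become plasma cells, which switch the B cell program off under IRF4 and BLIMP1 (the product of Prdm1) and secrete antibody in bulk. In the lung, B cells lie scattered in the tissue and can gather near airways and vessels in follicle-like aggregates, to which the chemokine CXCL13 draws them through its receptor CXCR5. Polymeric antibody made by mucosal plasma cells contains the joining chain, the product of Igj (Jchain in current RefSeq), and can be carried across the epithelium.

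Promoters are shown for 4 members that carry the expression pattern described below: 2 B cell genes that fell in TGFalpha vehicle lungs (Cd79a and Bank1), 1 B cell adaptor that varied between libraries (Blnk) and the plasma cell gene Igj. Each sequence runs 5′ to 3′ from 250 bases before to 50 bases after the RefSeq start site on GRCm38.p6, the reference of build mm10. Capitals mark motifs found by search on both strands. The Cd79a and Igj windows held no exact match to the motifs searched. Binding sites that depart from these strings are missed by such a search, so a window without a match may still hold one.
Cd79a (chr7:24897247-24897546, plus strand): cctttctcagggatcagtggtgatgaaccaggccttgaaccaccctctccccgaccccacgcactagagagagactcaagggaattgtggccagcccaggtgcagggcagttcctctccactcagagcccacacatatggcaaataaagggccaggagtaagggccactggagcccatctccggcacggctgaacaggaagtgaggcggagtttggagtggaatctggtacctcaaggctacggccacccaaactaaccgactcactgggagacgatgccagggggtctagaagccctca
Bank1 (chr3:136326017-136326316, minus strand): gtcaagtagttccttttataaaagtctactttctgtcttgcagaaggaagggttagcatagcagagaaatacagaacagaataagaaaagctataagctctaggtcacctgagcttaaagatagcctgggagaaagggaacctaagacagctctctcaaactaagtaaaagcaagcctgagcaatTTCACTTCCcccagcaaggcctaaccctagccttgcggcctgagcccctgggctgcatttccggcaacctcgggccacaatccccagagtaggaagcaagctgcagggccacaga
Blnk (chr19:40994172-40994471, minus strand): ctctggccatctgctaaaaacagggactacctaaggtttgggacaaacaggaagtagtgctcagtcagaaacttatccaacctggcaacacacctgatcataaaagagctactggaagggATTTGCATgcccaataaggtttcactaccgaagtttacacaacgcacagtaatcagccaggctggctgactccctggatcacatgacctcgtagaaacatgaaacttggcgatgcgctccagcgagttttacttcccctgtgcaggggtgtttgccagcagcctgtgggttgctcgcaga
Igj (chr5:88527848-88528147, minus strand): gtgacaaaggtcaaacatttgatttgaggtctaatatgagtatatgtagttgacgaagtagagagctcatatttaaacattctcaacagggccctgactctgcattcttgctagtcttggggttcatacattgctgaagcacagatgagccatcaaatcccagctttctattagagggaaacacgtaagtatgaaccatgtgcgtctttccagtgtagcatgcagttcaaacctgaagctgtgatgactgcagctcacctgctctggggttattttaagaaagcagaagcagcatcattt
RefSeq promoters were matched for 24 of the 31 members, with 28 start sites in all. The octamer ATGCAAAT, the motif of the OCT factors that Pou2f2 encodes and Pou2af1 co-activates, was found in 1 of the 28 member promoters (Blnk, at position -130 from the start site) and in 1.74% of all 32851 promoters of the same length. The composite GGAANNGAA, read by ETS and IRF factors such as SPI-B with IRF4, was found in 4 members (Bank1 at -65, Bcl11a, Cd22 and Pou2f2), or 14.3% of the member promoters and 8.24% of all promoters. The EBF core CCCNNGGGA was found in Cd22 and Sdc1, or 7.14% of the member promoters and 6.56% of all. In Cd22 its matches overlap each other, as do those of the composite. At most 5 CpG dinucleotides were present in 39.3% of the member promoters and in 43.6% of all promoters, and the median GC content was 54.2% in the members and 52.7% in all. These matches are a description of the windows only.

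Library totals were 11428709 to 14125367 reads in the TGFalpha pirfenidone group, 16327952 to 18874158 in the TGFalpha vehicle group and 15474002 to 16923531 in the control group. Within each group, 1 library stood apart from its companions. Control library 3 differed from control libraries 1 and 2 by a mean chi-square per gene of 75.3 and 66.9, against 6.27 between libraries 1 and 2. For pirfenidone library 3 the values were 35.98 and 39.5, against 10.7, and for vehicle library 1 they were 38.2 and 34.2, against 8.70. Control library 3 was the highest control for 24 of 25 B cell members (all but Ebf1) and for 5 of 6 plasma cell members (all but Sdc1). Pirfenidone library 3 was the lowest of its group for 17 of 25 B cell members and 4 of 6 plasma cell members. Counts and calls that rest on either library are given below with and without it.

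All values below are RPKM (reads per kilobase of gene, scaled to library size), listed for libraries 1, 2 and 3 of a group. The fold changes are differences of log2(RPKM + 1) with their standard error (SE) from limma, which understate changes of low genes. A gene is called when its p-value, adjusted by Benjamini-Hochberg over the 13849 genes tested, is under 0.05. A gene was tested when it exceeded 1 RPKM in at least 3 libraries, which 30 of the 31 members did. Bcl11a, a transcription factor of early lymphoid cells, was not tested, with 0.44, 0.66 and 0.48 RPKM in TGFalpha pirfenidone lungs, 0.36, 0.34 and 0.44 RPKM in TGFalpha vehicle lungs and 0.61, 0.65 and 0.74 RPKM in control lungs. Without the filter Bcl11a was called lower in TGFalpha vehicle than in control lungs (log2 fold change -0.28, SE 0.08, adjusted p = 0.0424). Tnfrsf17 passed with just 3 libraries above 1 RPKM, which are pirfenidone libraries 1 and 2 and control library 3.

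B cell transcripts were lower in TGFalpha vehicle lungs than in control lungs, while the plasma cell transcripts other than Sdc1 gave no call. Of the 30 members tested, 13 fell and 2 rose, where 11.2% of all genes tested fell and 12% rose. All 13 that fell are B cell members (of 24 tested), and the 2 that rose are Ciita and Sdc1. The median log2 fold change was -0.89 over the 24 B cell members and -0.59 over the 6 plasma cell members, beside 0.04 over all genes tested. The 6 include Tnfrsf17, which passed the filter only through libraries in which it is high. In lung tissue, fewer cells of a type and less RNA per cell cannot be told apart.

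Of the 9 receptor and surface genes, 5 fell. Cd79a, which encodes a signalling chain of the B cell receptor (chromosome 7, 24897497 to 24901858), had 8.45, 9.37 and 9.78 RPKM in TGFalpha vehicle lungs, against 23.3, 19.97 and 29.5 RPKM in control lungs. The vehicle libraries lay close together and all below the lowest control (log2 fold change -1.29, SE 0.23, adjusted p = 0.00642). Its partner Cd79b had 11.5, 14.3 and 14.99 RPKM in TGFalpha vehicle lungs, against 22.6, 18.8 and 30.8 RPKM in control lungs, again without overlap (log2 fold change -0.76, SE 0.23, adjusted p = 0.0429). That call was lost without any 1 of control libraries 1 and 3 or the 3 vehicle libraries (adjusted p = 0.0888 to 0.102). Ms4a1, which encodes the B cell surface protein CD20, had 3.29, 3.84 and 4.66 RPKM in TGFalpha vehicle lungs, against 10.8, 9.90 and 16.3 RPKM in control lungs (log2 fold change -1.41, SE 0.27, adjusted p = 0.00831). Cd37, a tetraspanin of mature B cells, had 9.91, 7.99 and 9.49 RPKM in TGFalpha vehicle lungs, against 21.5, 19.9 and 32.8 RPKM in control lungs (log2 fold change -1.32, SE 0.19, adjusted p = 0.00327). Fcrla, an Fc receptor-like protein kept inside B cells, also fell (log2 fold change -1.02, SE 0.21, adjusted p = 0.0108), with 0.79 to 1.46 RPKM in TGFalpha vehicle lungs and 2.74 to 4.01 RPKM in control lungs.

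Among the remaining surface genes, Cd22 (an inhibitory co-receptor), Cr2 (the complement receptor CD21) and Fcer2a (the low-affinity IgE receptor CD23) did not pass the test. Fcer2a had 2.80, 2.68 and 4.29 RPKM in TGFalpha vehicle lungs, against 4.29, 4.77 and 19.7 RPKM in control lungs, so its mean difference rests largely on control library 3 (log2 fold change -1.03, SE 0.52, adjusted p = 0.182). Cr2 stood at 0.56 to 0.95 RPKM in TGFalpha vehicle lungs and 1.27 to 2.72 RPKM in control lungs (adjusted p = 0.0756), and Cd22 at 3.27 to 4.07 and 4.13 to 10.97 RPKM in the same groups (adjusted p = 0.152). Cd72, an inhibitory C-type lectin, had 5.40, 2.09 and 3.55 RPKM in TGFalpha vehicle lungs and 1.81, 1.27 and 5.72 RPKM in control lungs, with groups that overlap (adjusted p = 0.635).

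Of the 4 receptor signalling genes, Blk and Bank1 fell. Blk, a Src-family kinase of B cells, had 0.98, 1.26 and 1.54 RPKM in TGFalpha vehicle lungs, against 3.17, 3.68 and 4.58 RPKM in control lungs (log2 fold change -1.09, SE 0.17, adjusted p = 0.00422). Bank1, a scaffold that links the receptor to kinases, had 1.59, 1.55 and 2.24 RPKM in TGFalpha vehicle lungs, against 4.36, 4.20 and 5.93 RPKM in control lungs (log2 fold change -1.06, SE 0.16, adjusted p = 0.00372). Every vehicle value of both genes lay under every control value. Btk, a kinase that myeloid cells also use, and the adaptor Blnk had groups that overlap and did not pass (adjusted p = 0.173 and 0.265). Blnk had 3.97, 3.80 and 4.80 RPKM in TGFalpha vehicle lungs and 4.57, 5.05 and 15.3 RPKM in control lungs.

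The B cell transcription factors held the member with the steepest fall. Spib, an ETS factor of B cells and plasmacytoid dendritic cells (chromosome 7, 44525995 to 44532087), had 1.58, 2.29 and 2.13 RPKM in TGFalpha vehicle lungs, against 7.54, 6.10 and 15.3 RPKM in control lungs (log2 fold change -1.74, SE 0.28, adjusted p = 0.00492). Pax5, which commits cells to the B lineage (chromosome 4, 44524748 to 44710694), had 0.98, 1.32 and 1.62 RPKM in TGFalpha vehicle lungs, against 3.99, 4.55 and 4.99 RPKM in control lungs (log2 fold change -1.26, SE 0.18, adjusted p = 0.00300). Its controls lay within a narrow range, library 3 included. Ikzf3, an Ikaros-family factor of mature lymphocytes, had the smallest adjusted p of the members, with 2.41, 2.23 and 2.82 RPKM in TGFalpha vehicle lungs, against 6.09, 5.93 and 7.86 RPKM in control lungs (log2 fold change -1.12, SE 0.13, adjusted p = 0.00167). Pou2af1, the co-activator OBF-1, fell by 1.26 on the log2 scale (SE 0.38, adjusted p = 0.0425), with 4.22, 3.13 and 4.67 RPKM in TGFalpha vehicle lungs and 8.23, 8.51 and 18.01 RPKM in control lungs. The Pou2af1 call was lost without any 1 of the 6 libraries (adjusted p = 0.0655 to 0.141), and with limma-voom on recovered reads (0.0532). Ebf1 and Pou2f2 did not pass. Ebf1 had 4.597, 2.14 and 2.25 RPKM in TGFalpha vehicle lungs and 5.41, 4.94 and 4.06 RPKM in control lungs (adjusted p = 0.0920). Vehicle library 1 lay among the controls, and without it the gene was called lower (adjusted p = 0.00733).

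Ciita went the other way. It encodes the coactivator that switches on MHC class II genes, in B cells and in macrophages, dendritic cells and cytokine-treated epithelium. It had 19.4, 12.2 and 12.2 RPKM in TGFalpha vehicle lungs, against 6.60, 7.29 and 10.7 RPKM in control lungs (log2 fold change 0.76, SE 0.22, adjusted p = 0.0389). The groups did not overlap, but the call was lost without any 1 of the 6 libraries other than control library 3 (adjusted p = 0.0687 to 0.126), with median-of-ratios scaling (0.0532) and in a fit of the 2 groups alone (0.0562). Of 8 MHC class II genes tested, 1 fell (H2-Ob) and 0 rose by limma on RPKM, with 2 higher at an unadjusted p under 0.05 and 1 higher by limma-voom on recovered reads. H2-Ob, a chain of H2-O that B cells express, had 2.79, 2.96 and 3.97 RPKM in TGFalpha vehicle lungs, against 5.66, 8.11 and 9.83 RPKM in control lungs (log2 fold change -1.05, SE 0.20, adjusted p = 0.00869). The 8 genes summed to 1076 to 1105 RPKM in TGFalpha vehicle lungs and to 622.9, 711.8 and 1278 RPKM in control lungs, and their part in the Ciita result was not tested.

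Among the receptors for survival and help signals, Tnfrsf13c fell clearly and Cd40 narrowly. Tnfrsf13c encodes the BAFF receptor, on which mature B cells depend (chromosome 15, 82221742 to 82224380). It had 0.90, 0.87 and 0.97 RPKM in TGFalpha vehicle lungs, against 2.90, 2.81 and 4.28 RPKM in control lungs (log2 fold change -1.16, SE 0.20, adjusted p = 0.00553). The gene Tnfsf13b, which encodes BAFF, the ligand of this receptor, had 10.5, 5.84 and 8.55 RPKM in TGFalpha vehicle lungs, against 24.7, 28.2 and 25.3 RPKM in control lungs (log2 fold change -1.57, SE 0.18, adjusted p = 0.00174). Ligand and receptor transcripts were thus both lower, each without overlap between the groups. Cd40, the receptor for T cell help that myeloid cells carry too, had 8.90, 7.49 and 6.95 RPKM in TGFalpha vehicle lungs, against 9.52, 9.88 and 13.5 RPKM in control lungs (log2 fold change -0.44, SE 0.14, adjusted p = 0.0481). This call did not hold without any 1 of the 3 control libraries or vehicle libraries 2 and 3 (adjusted p = 0.0590 to 0.164), with limma-voom on recovered reads (0.0513), without the filter on low values (0.0553) or in a fit of the 2 groups alone (0.0793). The count of 13 lower members is the same without the filter, where Bcl11a is called and Cd40 is not. Cd40lg, the T cell ligand of CD40, was lower as well, with 0.38 to 0.78 RPKM in TGFalpha vehicle lungs and 1.45 to 2.36 RPKM in control lungs (log2 fold change -0.80, SE 0.24, adjusted p = 0.0414), a call lost without any 1 of the 6 libraries (adjusted p = 0.0568 to 0.143). Tnfrsf13b, which encodes TACI, and Cd180, a Toll-like receptor homologue, had overlapping groups and did not pass (adjusted p = 0.705 and 0.785).

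**Figure D1:**
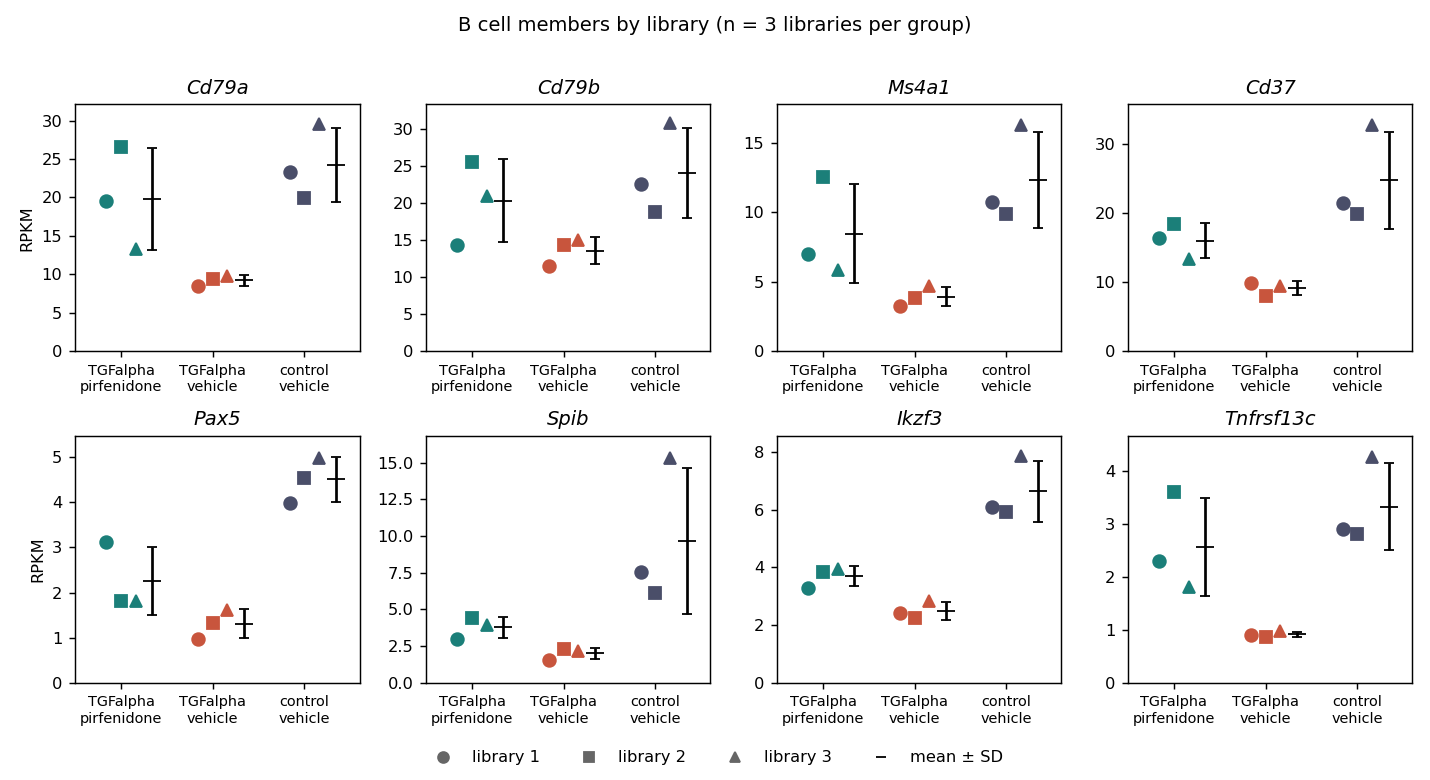
RPKM of 8 B cell members in each library (symbols mark libraries 1, 2 and 3, bars show mean ± SD, n = 3), with TGFalpha pirfenidone at the left, TGFalpha vehicle in the middle and control at the right of each panel. In all 8 panels each TGFalpha vehicle library lies below each control library, and control library 3 is the highest control. For Ikzf3, Pax5, Spib and Cd37, all pirfenidone libraries lie between the 2 other groups.

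In Igj and Mzb1, the spread between control libraries was larger than the difference between the groups. Igj (chromosome 5, 88519809 to 88527897) had 80.6, 30.9 and 45.5 RPKM in TGFalpha vehicle lungs and 30.9, 57.7 and 337.8 RPKM in control lungs. A single control library, number 3, held most of the control signal, so the means of 52.4 ± 25.5 RPKM in TGFalpha vehicle lungs and 142.1 ± 170.0 RPKM in control lungs (SD, n = 3 each) say little about the groups (log2 fold change -0.80, SE 1.03, adjusted p = 0.607). Mzb1, a chaperone of antibody-making cells in the endoplasmic reticulum, showed the same high library, with 4.92, 2.43 and 3.92 RPKM in TGFalpha vehicle lungs and 5.25, 5.78 and 19.2 RPKM in control lungs (log2 fold change -1.03, SE 0.60, adjusted p = 0.237). Irf4, which drives plasma cell differentiation and also acts in T cells and macrophages, had 1.49, 1.24 and 1.43 RPKM in TGFalpha vehicle lungs and 2.65, 2.37 and 6.84 RPKM in control lungs. The 2 groups did not overlap, and Irf4 was just short of the threshold (log2 fold change -0.94, SE 0.31, adjusted p = 0.0549), which it passed with a pseudocount of 0.1 (adjusted p = 0.0414). Tnfrsf17, which encodes the plasma cell survival receptor BCMA, had 3, 1 and 6 reads in TGFalpha vehicle libraries and 7, 2 and 18 reads in control libraries. Of these 6 counts, 3 are at or under the floor of 3 reads, so no fold is given. Prdm1, which T cells and other cells also express, was at 3.59 to 4.58 RPKM in TGFalpha vehicle lungs and 3.54 to 5.04 RPKM in control lungs (adjusted p = 0.520).

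Sdc1 was the plasma cell member that rose. It encodes syndecan-1 (CD138), a proteoglycan of plasma cells that epithelial cells also carry (chromosome 12, 8771396 to 8793716). It had 93.8, 154.8 and 138.1 RPKM in TGFalpha vehicle lungs, against 60.2, 60.5 and 55.7 RPKM in control lungs (log2 fold change 1.09, SE 0.22, adjusted p = 0.00999). The vehicle libraries all lay above the controls, and control library 3, the highest for Igj and Mzb1, was the lowest for Sdc1. Epcam, an epithelial adhesion molecule, had 48.9, 79.01 and 67.9 RPKM in TGFalpha vehicle lungs, against 35.0, 37.2 and 36.04 RPKM in control lungs (log2 fold change 0.81, SE 0.25, adjusted p = 0.0486), a call lost without any 1 of the 6 libraries other than vehicle library 1 (adjusted p = 0.0814 to 0.164). The ratio of Sdc1 to Epcam was 1.92, 1.96 and 2.03 in TGFalpha vehicle lungs and 1.72, 1.63 and 1.55 in control lungs. Of 11 lung epithelial markers, 3 rose and 2 fell, and their part in the Sdc1 result was not tested.

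**Figure D2:**
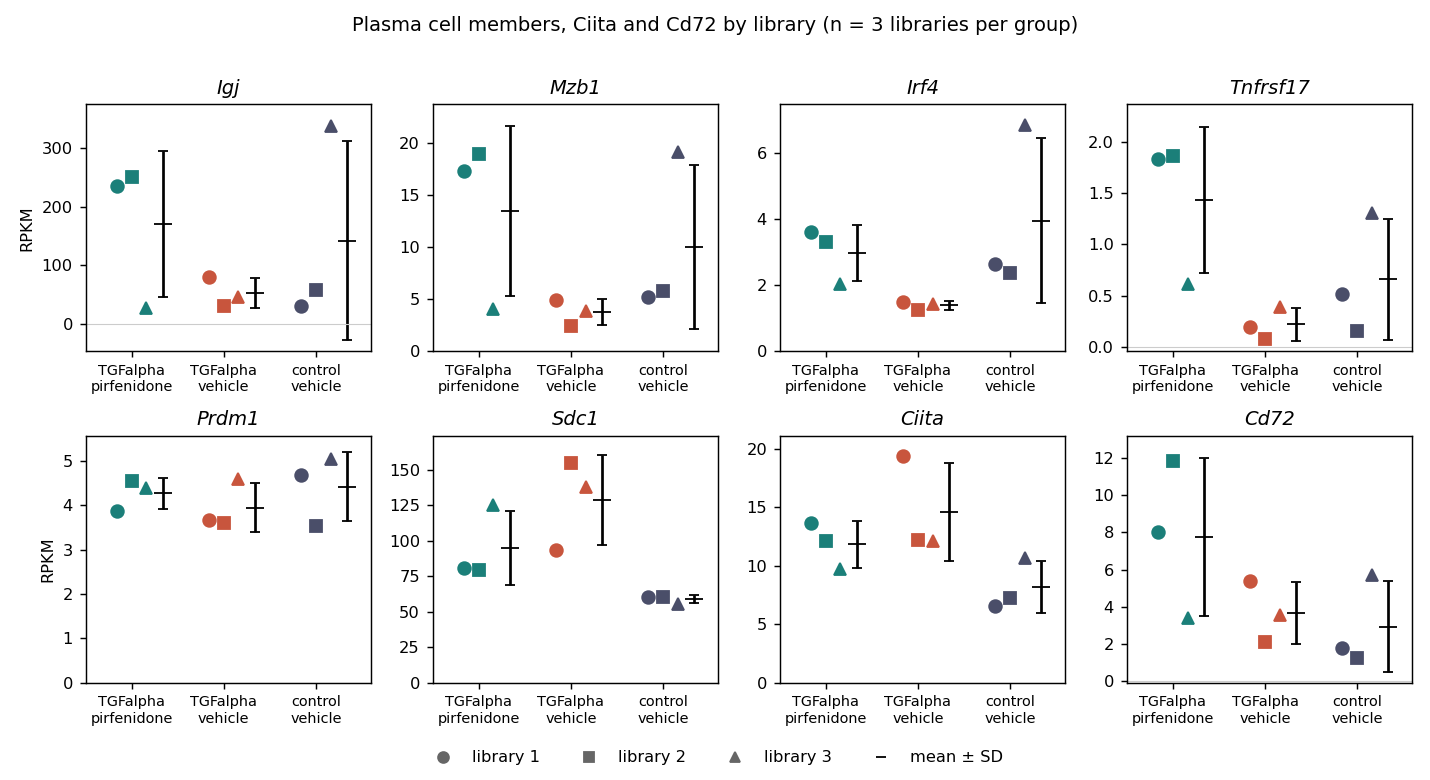
RPKM of the 6 plasma cell members and of the B cell members Ciita and Cd72 in each library (symbols mark libraries 1, 2 and 3, bars show mean ± SD, n = 3), with TGFalpha pirfenidone at the left, TGFalpha vehicle in the middle and control at the right. Igj and Mzb1 are high in pirfenidone libraries 1 and 2 and in control library 3 and low in the other 6, while Sdc1 is high in the TGFalpha vehicle libraries and in pirfenidone library 3. The SD bar of Igj in control reaches below 0 because 1 library of 3 sets it.

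Leaving out control library 3 kept 10 of the 13 lower calls (Cd79b, Pou2af1 and Cd40 were lost), against 12.5% of all genes lower in that fit. The 2 higher calls stayed at 2, and the median of the 29 members tested was -0.49. Over all fits that leave out 1 library, 10 to 12 members were lower and 1 or 2 higher. Cd79a, Ms4a1, Cd37, Fcrla, Blk, Bank1, Pax5, Spib, Ikzf3 and Tnfrsf13c were called lower in every fit run.

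Genes that act beside these members moved with them in part. Of 17 receptor signalling partners, 4 fell (Lyn, Rasgrp3, Nfatc1 and Syk), 0 rose and 13 did not pass, with a median log2 fold change of -0.34. Several of these kinases and adaptors work in other leukocytes too. Of 13 homing and follicle genes tested, 8 fell, 0 rose and 5 did not pass, with a median of -1.08. In neither list was a gene higher at an unadjusted p under 0.05, and limma-voom on recovered reads called 0 higher. Cxcr5, the follicle homing receptor, had 1.77, 2.62 and 1.95 RPKM in TGFalpha vehicle lungs, against 5.12, 5.39 and 5.79 RPKM in control lungs (log2 fold change -1.06, SE 0.12, adjusted p = 0.00174). Itga4, an integrin chain used by many lymphocytes for entry into tissue, fell by 1.18 on the log2 scale (SE 0.11, adjusted p = 0.00106). The ligand of CXCR5 did not fall with it, since Cxcl13 had 47.9, 21.5 and 24.1 RPKM in TGFalpha vehicle lungs and 7.17, 8.29 and 40.4 RPKM in control lungs (log2 fold change 1.04, SE 0.78, adjusted p = 0.357). Control library 3 was again far from the other controls.

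Of 5 germinal centre genes tested, 0 were called by limma, with 1 lower and 1 higher at an unadjusted p under 0.05 and 0 by limma-voom on recovered reads. The precursor gene Vpreb3 had 11.1, 8.75 and 6.34 RPKM in TGFalpha vehicle lungs, against 16.1, 12.8 and 14.9 RPKM in control lungs (log2 fold change -0.70, SE 0.19, adjusted p = 0.0327), a call lost without any 1 of the 6 libraries other than vehicle library 1 (adjusted p = 0.0591 to 0.105). Of 14 plasma cell secretory genes, Pim2 fell and Fkbp11 rose, and 12 did not pass. The Pim2 call was lost without any 1 of libraries 2 and 3 of either group (adjusted p = 0.0661 to 0.125). Xbp1, the factor that expands the secretory apparatus of plasma cells and of other secretory cells, stood at 113.0, 109.9 and 125.5 RPKM in TGFalpha vehicle lungs and 112.1, 121.7 and 128.4 RPKM in control lungs (adjusted p = 0.750). Of 12 immunoglobulin constant genes listed, 0 had a row under that symbol in the table used here, so they were not analysed.

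Some other leukocyte lists were lower in the same libraries, and the macrophage list was not. All 6 natural killer markers and 15 of 16 T cell markers fell (medians -1.18 and -0.95), and 4 of 10 pan-leukocyte genes fell while 6 did not pass (median -0.60). Of the 10 macrophage markers limma called 0 in either direction (median 0.52), with 1 higher and 0 lower at an unadjusted p under 0.05 and 0 called by limma-voom on recovered reads. The 16 T cell markers summed to 64.8 to 75.5 RPKM in TGFalpha vehicle lungs and 123.0 to 177.6 RPKM in control lungs. All 6 endothelial markers fell too (median -1.11), and their sum was 454.1 to 618.1 RPKM in TGFalpha vehicle lungs, against 977.1 to 1457 RPKM in control lungs. The ratio of Cd79a to Ptprc, the pan-leukocyte gene for CD45, was 0.28, 0.34 and 0.38 in TGFalpha vehicle lungs, against 0.57, 0.46 and 0.50 in control lungs. Cd79a was thus lower per unit of Ptprc in every vehicle library, as was Ms4a1 (0.11, 0.14 and 0.18, against 0.26, 0.23 and 0.28). Cd79b was not, since its ratio to Ptprc overlapped between the groups. The ratio of Cd79b to Cd79a was 1.36, 1.53 and 1.53 in TGFalpha vehicle lungs and 0.97, 0.94 and 1.04 in control lungs. The ratio of Cd79a to the T cell gene Cd3e overlapped between the groups, with 1.604, 2.29 and 2.37 in TGFalpha vehicle lungs and 2.32, 2.01 and 2.32 in control lungs. The part of the other cell types in the B cell result was not tested.

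Pirfenidone was compared with vehicle in TGFalpha mice to ask whether these transcripts differ with the drug. None of the 30 members tested was called, where 0.549% of all genes were lower and 0.152% higher. The tool was limma on RPKM, 17 members were higher and 0 lower at an unadjusted p under 0.05, and limma-voom on recovered reads called 0. Over the whole table, 2862 of the 13849 genes tested had an unadjusted p under 0.05 by limma in either direction. The fold change was positive for 28 of 30 members (all but Ciita and Sdc1), with a median of 0.54, beside 0.03 over all genes tested. The median was 0.53 for B cell members and 0.84 for plasma cell members. The plasma cell median and the counts of higher members include Tnfrsf17, which passed the filter only through libraries in which it is high. Since the vehicle libraries also serve in the comparison with control, opposite signs in the 2 comparisons are partly built in, and no agreement between them is counted.

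In several B cell genes all pirfenidone libraries lay above all vehicle libraries. Cd79a had 19.6, 26.6 and 13.3 RPKM in TGFalpha pirfenidone lungs, against 8.45, 9.37 and 9.78 RPKM in TGFalpha vehicle lungs (log2 fold change 0.98, SE 0.23, adjusted p = 0.0823). Tnfrsf13c had 2.30, 3.61 and 1.82 RPKM in TGFalpha pirfenidone lungs, against 0.90, 0.87 and 0.97 RPKM in TGFalpha vehicle lungs (log2 fold change 0.87, SE 0.20, adjusted p = 0.0789). For both genes every pirfenidone library lay above every vehicle library, and library 3 was the lowest of the pirfenidone group. Bank1 had 3.80, 3.87 and 2.90 RPKM in TGFalpha pirfenidone lungs, against 1.59, 1.55 and 2.24 RPKM in TGFalpha vehicle lungs (log2 fold change 0.70, SE 0.16, adjusted p = 0.0798). Cd37 had 16.4, 18.4 and 13.3 RPKM in TGFalpha pirfenidone lungs, against 9.91, 7.99 and 9.49 RPKM in TGFalpha vehicle lungs (log2 fold change 0.74, SE 0.19, adjusted p = 0.0988). Ms4a1 had 7.02, 12.5 and 5.85 RPKM in TGFalpha pirfenidone lungs, against 3.29, 3.84 and 4.66 RPKM in TGFalpha vehicle lungs (log2 fold change 0.89, SE 0.27, adjusted p = 0.130). None of these groups overlapped, and none of these genes passed the test over all genes. Other B cell members overlapped, among them Cd79b, Cd22, Blk, Btk and Ebf1. How many of all genes tested lack overlap was not counted, so lack of overlap does not set these genes apart.

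Among the transcription factors, Pou2af1 had 13.8, 12.5 and 5.16 RPKM in TGFalpha pirfenidone lungs, against 4.22, 3.13 and 4.67 RPKM in TGFalpha vehicle lungs (log2 fold change 1.11, SE 0.38, adjusted p = 0.155). Pou2f2, which encodes the octamer factor OCT-2, had 3.60, 4.04 and 2.47 RPKM in TGFalpha pirfenidone lungs, against 1.81, 1.27 and 1.83 RPKM in TGFalpha vehicle lungs (log2 fold change 0.72, SE 0.20, adjusted p = 0.113). Library 3 of the pirfenidone group was closest to the vehicle libraries for both. Ikzf3 had 3.29, 3.82 and 3.96 RPKM in TGFalpha pirfenidone lungs, a narrow range with library 3 the highest, against 2.41, 2.23 and 2.82 RPKM in TGFalpha vehicle lungs (log2 fold change 0.43, SE 0.13, adjusted p = 0.123). Pax5 had 3.11, 1.82 and 1.82 RPKM in TGFalpha pirfenidone lungs and 0.98, 1.32 and 1.62 RPKM in TGFalpha vehicle lungs (adjusted p = 0.180). Spib had 2.98, 4.40 and 3.94 RPKM in TGFalpha pirfenidone lungs and 1.58, 2.29 and 2.13 RPKM in TGFalpha vehicle lungs (adjusted p = 0.229).

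Among the plasma cell genes, Igj and Mzb1 were high in pirfenidone libraries 1 and 2 and low in library 3. Igj had 234.5, 250.6 and 27.0 RPKM in TGFalpha pirfenidone lungs and 80.6, 30.9 and 45.5 RPKM in TGFalpha vehicle lungs (log2 fold change 1.26, SE 1.03, adjusted p = 0.516). Mzb1 had 17.4, 19.0 and 4.06 RPKM in TGFalpha pirfenidone lungs and 4.92, 2.43 and 3.92 RPKM in TGFalpha vehicle lungs (log2 fold change 1.41, SE 0.60, adjusted p = 0.229). In both genes the first 2 pirfenidone libraries lay far above all vehicle libraries, and the third lay among them for Mzb1 and below them for Igj. Tnfrsf17 had 17, 20 and 7 reads in TGFalpha pirfenidone libraries, against 3, 1 and 6 reads in TGFalpha vehicle libraries, although the pirfenidone libraries were the shallower ones (adjusted p = 0.138). Irf4 had 3.61, 3.30 and 2.03 RPKM in TGFalpha pirfenidone lungs, against 1.49, 1.24 and 1.43 RPKM in TGFalpha vehicle lungs, without overlap (log2 fold change 0.71, SE 0.31, adjusted p = 0.232). Sdc1 had 80.9, 79.1 and 125.2 RPKM in TGFalpha pirfenidone lungs and 93.8, 154.8 and 138.1 RPKM in TGFalpha vehicle lungs (log2 fold change -0.44, SE 0.22, adjusted p = 0.286). Its order of pirfenidone libraries was the reverse of that of Igj, with library 3 the highest. Prdm1 showed no such split, with 3.87, 4.55 and 4.38 RPKM in TGFalpha pirfenidone lungs and 3.59 to 4.58 RPKM in TGFalpha vehicle lungs.

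Of the genes beside the members, Cxcl13 split between the pirfenidone libraries and Cxcr5 did not. Cxcr5 had 3.31, 3.99 and 3.68 RPKM in TGFalpha pirfenidone lungs, against 1.77, 2.62 and 1.95 RPKM in TGFalpha vehicle lungs (log2 fold change 0.59, SE 0.12, adjusted p = 0.06996). Cxcl13 had 188.3, 192.8 and 36.7 RPKM in TGFalpha pirfenidone lungs and 47.9, 21.5 and 24.1 RPKM in TGFalpha vehicle lungs, where pirfenidone library 3 fell within the vehicle range (log2 fold change 1.88, SE 0.78, adjusted p = 0.218). Of the 17 receptor signalling partners and the 13 homing and follicle genes, limma called 0, with 5 and 5 genes higher and 0 lower at an unadjusted p under 0.05 and 0 called by limma-voom on recovered reads.

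Without pirfenidone library 3, 10 of 30 members were called higher and 0 lower. They were Cd79a, Ms4a1, Cd37, Bank1, Pou2f2, Pou2af1, Tnfrsf13c, Cd180, Mzb1 and Tnfrsf17, with adjusted p from 0.00673 (Cd79a) to 0.0361 (Cd180). Tnfrsf17 passed the filter through libraries in which it is high, and its vehicle libraries hold 3, 1 and 6 reads, so its call there carries little weight. In that fit 7.62% of all genes tested were higher and 2111 genes were called in either direction, against 97 with the library. Without any other library of the 6, 0 members were called. Some other cell type lists were also low in library 3, and others were not. The 10 macrophage markers summed to 1019, 1070 and 448.2 RPKM in pirfenidone libraries 1, 2 and 3, against 391.6 to 557.7 RPKM in TGFalpha vehicle libraries. The complement genes C1qa, C1qb and C1qc hold most of that sum in libraries 1 and 2, while Marco, a scavenger receptor of alveolar macrophages, ran the other way with 2.47, 1.33 and 15.7 RPKM. The 10 pan-leukocyte genes summed to 592.9, 628.0 and 462.2 RPKM in pirfenidone libraries 1, 2 and 3, against 420.5 to 461.8 RPKM in TGFalpha vehicle libraries. The 6 natural killer markers summed to 23.45, 41.3 and 41.1 RPKM and the 6 endothelial markers to 522.8, 539.7 and 559.8 RPKM in the same libraries, so neither list was lowest in library 3. The part of these cell types in the spread of the members was not tested.

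Skeletal muscle RNA also differed between libraries. Acta1, the actin of skeletal muscle, had 128.4, 573.6 and 0.95 RPKM in TGFalpha pirfenidone lungs, 406.8, 157.8 and 0.54 RPKM in TGFalpha vehicle lungs and 0.61, 0.74 and 0.45 RPKM in control lungs. The 2 pirfenidone libraries rich in Igj hold this RNA, and control library 3 is rich in Igj without it. Adipoq, the adiponectin gene of fat cells, had 27.6, 30.3 and 4.37 RPKM in TGFalpha pirfenidone lungs, 10.6, 1.19 and 0.43 RPKM in TGFalpha vehicle lungs and 1.30, 2.465 and 2.25 RPKM in control lungs. It was thus highest in the libraries with the highest Igj in both TGFalpha groups, and low in control library 3. The 8 mesenchymal and adipocyte markers summed to 483.6 to 750.9 RPKM in TGFalpha pirfenidone lungs, 360.9 to 447.4 RPKM in TGFalpha vehicle lungs and 211.5 to 233.6 RPKM in control lungs. The part of these tissues in the member values was not tested.

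Cd72, Blnk and Tnfrsf13b also split between the pirfenidone libraries. Cd72 had 8.03, 11.8 and 3.41 RPKM in TGFalpha pirfenidone lungs and 5.40, 2.09 and 3.55 RPKM in TGFalpha vehicle lungs (adjusted p = 0.373). Blnk had 8.22, 11.4 and 4.96 RPKM in TGFalpha pirfenidone lungs and 3.97, 3.80 and 4.80 RPKM in TGFalpha vehicle lungs (adjusted p = 0.319). Tnfrsf13b had 4.08, 3.13 and 0.66 RPKM in TGFalpha pirfenidone lungs and 1.14, 1.797 and 1.98 RPKM in TGFalpha vehicle lungs, with library 3 below all vehicle libraries (adjusted p = 0.681). The 3 genes shared the order in which library 3 was the lowest of its group. Cd40, Btk, Cd22, Prdm1 and Ciita differed little between these groups, with fold changes of -0.26 to 0.17 on the log2 scale.

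**Figure D3:**
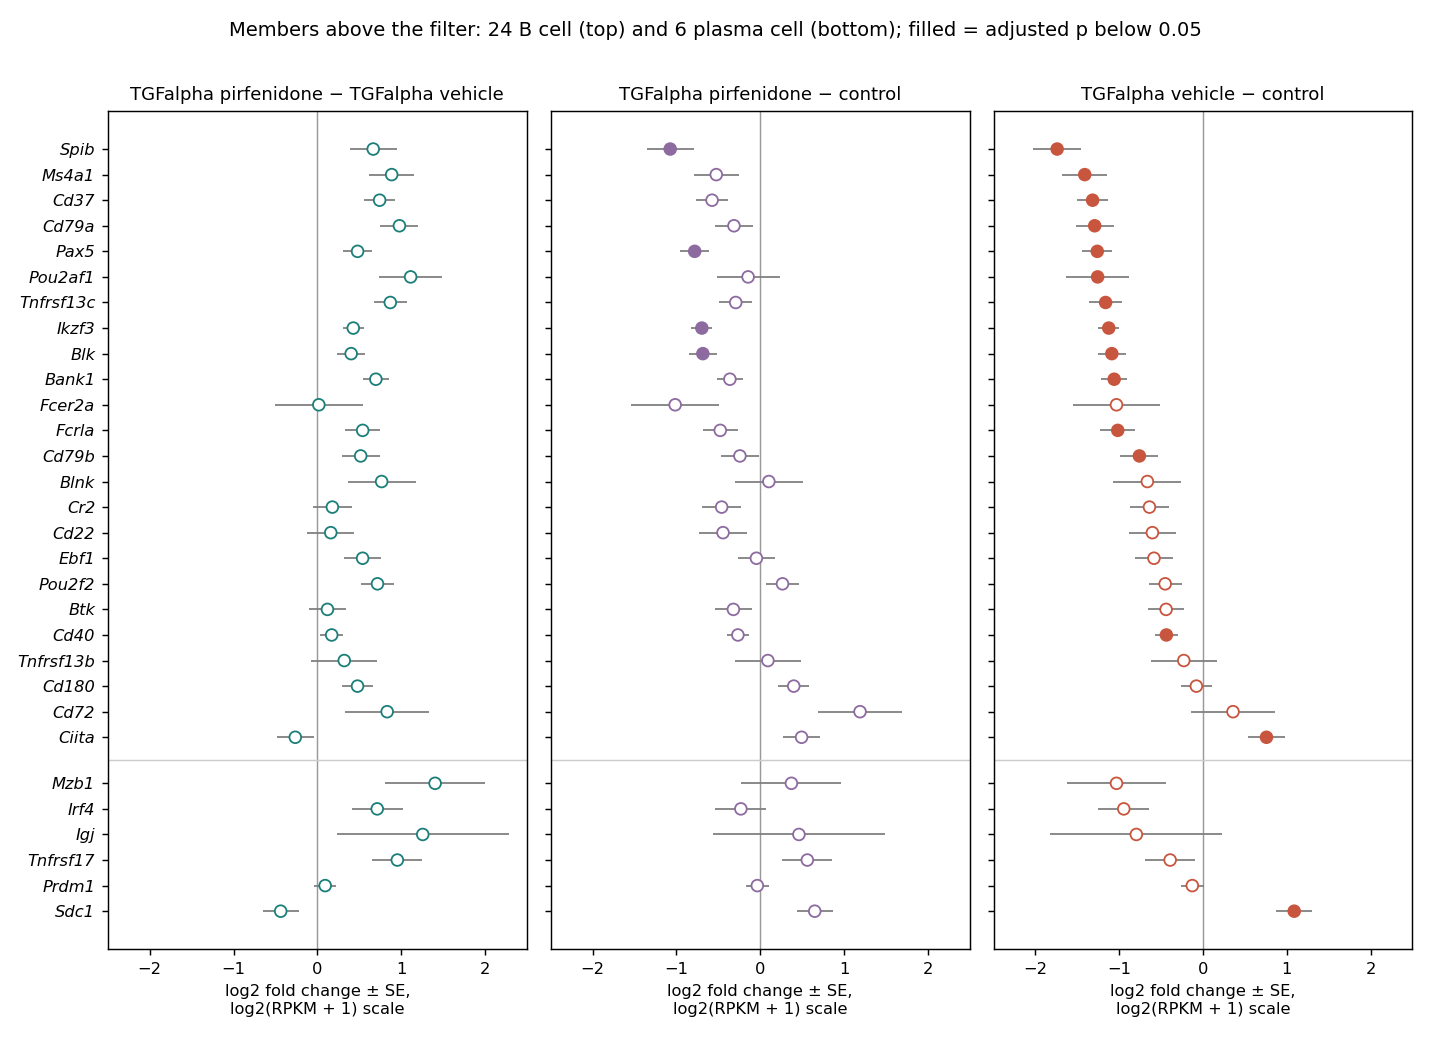
Log2 fold change ± SE, on the log2(RPKM + 1) scale, of the 30 members tested, for TGFalpha pirfenidone minus TGFalpha vehicle, TGFalpha pirfenidone minus control and TGFalpha vehicle minus control. Filled points passed the adjusted p threshold of 0.05 and open points did not. The right panel holds 13 filled points below 0 and 2 above, the left panel none, and the middle panel 4 below 0.

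TGFalpha pirfenidone lungs were also set against control lungs, and these libraries enter the comparisons above as well. Of the 30 members, 4 fell (Ikzf3, Pax5, Blk and Spib) and 0 rose, where 7.74% of all genes tested fell and 10.6% rose. The tool was limma, 2 members were higher at an unadjusted p under 0.05, and limma-voom on recovered reads called 0 higher. Over the whole table, 4704 of the 13849 genes tested had an unadjusted p under 0.05 by limma in either direction. Ikzf3 had 3.29, 3.82 and 3.96 RPKM in TGFalpha pirfenidone lungs, against 6.09, 5.93 and 7.86 RPKM in control lungs (log2 fold change -0.70, SE 0.13, adjusted p = 0.0083). Pax5 had 3.11, 1.82 and 1.82 RPKM in TGFalpha pirfenidone lungs, against 3.99, 4.55 and 4.99 RPKM in control lungs (log2 fold change -0.78, SE 0.18, adjusted p = 0.0188). The 2 factors were thus below control in every pirfenidone library. Blk had 2.02, 2.51 and 1.49 RPKM in TGFalpha pirfenidone lungs, against 3.17, 3.68 and 4.58 RPKM in control lungs (log2 fold change -0.68, SE 0.17, adjusted p = 0.0261). Spib had 2.98, 4.40 and 3.94 RPKM in TGFalpha pirfenidone lungs, against 7.54, 6.10 and 15.3 RPKM in control lungs (log2 fold change -1.07, SE 0.28, adjusted p = 0.0324). Ikzf3 was called in every fit that leaves out 1 library, where the number of lower members was 2 or 3. Pax5 lost its call without control library 2 (adjusted p = 0.0651) or pirfenidone library 2 (0.0724). The Blk call was lost without control library 2 (0.0756), control library 3 (0.0550), pirfenidone library 1 (0.0694) or pirfenidone library 3 (0.0512). That of Spib was lost without control library 1 (0.0652), pirfenidone library 1 (0.0999), pirfenidone library 2 (0.0699) or pirfenidone library 3 (0.0521), with limma-voom on recovered reads (0.0534) and in a fit of the 2 groups alone (0.0642).

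The other B cell members did not pass. Fcer2a had 1.53, 5.11 and 3.96 RPKM in TGFalpha pirfenidone lungs and 4.29, 4.77 and 19.7 RPKM in control lungs, with overlap (log2 fold change -1.01, SE 0.52, adjusted p = 0.21). Cd79a had 19.6, 26.6 and 13.3 RPKM in TGFalpha pirfenidone lungs and 23.3, 19.97 and 29.5 RPKM in control lungs, with overlap (log2 fold change -0.31, SE 0.23, adjusted p = 0.367). Tnfrsf13c, Bank1, Cd79b and Ms4a1 had fold changes of -0.29, -0.36, -0.24 and -0.52 on the log2 scale, none of which passed (adjusted p = 0.144 to 0.491). Cd72 was the member with the largest positive difference (log2 fold change 1.19, SE 0.50, adjusted p = 0.131), and it was called higher without control library 3 (adjusted p = 0.0368) or pirfenidone library 3 (0.0492). Cd180 was also called higher without pirfenidone library 3 (0.0440). Without control library 3, 1 of 29 members and 1721 of all 13765 genes tested were higher. Without pirfenidone library 3, 2 of 30 members and 1627 of all 13787 genes tested were higher. The median over the B cell members was -0.32 and over the plasma cell members 0.42, beside 0.05 over all genes tested. None of the 6 plasma cell members passed. Of these, 4 were above 0 (Sdc1, Tnfrsf17, Igj and Mzb1) and 2 below (Irf4 and Prdm1), and Tnfrsf17 passed the filter only through libraries in which it is high. Sdc1 had 80.9, 79.1 and 125.2 RPKM in TGFalpha pirfenidone lungs, against 60.2, 60.5 and 55.7 RPKM in control lungs, without overlap and just short of the threshold (log2 fold change 0.65, SE 0.22, adjusted p = 0.0675).

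Of the 17 receptor signalling partners, 2 fell in this comparison (Rasgrp3 and Lyn) and 1 rose (Cd38). Cd38, an ectoenzyme of B cells, plasma cells and other leukocytes, had 47.0, 49.98 and 30.04 RPKM in TGFalpha pirfenidone lungs, against 22.8, 20.5 and 19.7 RPKM in control lungs (log2 fold change 0.95, SE 0.21, adjusted p = 0.0184), a call lost without control library 2, pirfenidone library 1 or pirfenidone library 2 (adjusted p = 0.0633 to 0.0706). Of the 13 homing and follicle genes, 6 fell and 1, Cxcl13, rose. Cxcl13 had 188.3, 192.8 and 36.7 RPKM in TGFalpha pirfenidone lungs, against 7.17, 8.29 and 40.4 RPKM in control lungs (log2 fold change 2.93, SE 0.78, adjusted p = 0.0332). The groups overlapped through library 3 of each, and the call was lost without any 1 of control libraries 1 and 2 or pirfenidone libraries 1 and 2 (adjusted p = 0.103 to 0.114). The 2 pirfenidone libraries with high Cxcl13 are those with high Igj. Its receptor gene Cxcr5 was lower, with 3.31, 3.99 and 3.68 RPKM in TGFalpha pirfenidone lungs, against 5.12, 5.39 and 5.79 RPKM in control lungs (log2 fold change -0.47, SE 0.12, adjusted p = 0.0318). That call was lost without any 1 of the 6 libraries (adjusted p = 0.0501 to 0.0990). Tnfsf13b had 14.7, 14.3 and 11.2 RPKM in TGFalpha pirfenidone lungs, against 24.7, 28.2 and 25.3 RPKM in control lungs (log2 fold change -0.92, SE 0.18, adjusted p = 0.0122), a call lost without control library 2 (0.0501).

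The summed B cell members, and the summed plasma cell members other than Igj and Sdc1, were lower in each TGFalpha vehicle library than in any other library. The 25 B cell members summed to 159.8, 200.1 and 128.3 RPKM in TGFalpha pirfenidone lungs, 107.4, 96.5 and 108.7 RPKM in TGFalpha vehicle lungs and 170.5, 159.4 and 280.8 RPKM in control lungs. The 4 plasma cell members other than Igj and Sdc1 summed to 26.7, 28.7 and 11.1 RPKM in TGFalpha pirfenidone lungs, 10.3, 7.34 and 10.3 RPKM in TGFalpha vehicle lungs and 13.1, 11.9 and 32.4 RPKM in control lungs. The highest vehicle sum of these 4 lay just under pirfenidone library 3. With Igj and Sdc1 included, the vehicle libraries were not the lowest. All 6 plasma cell members summed to 184.7, 193.1 and 193.9 RPKM in TGFalpha vehicle lungs. The same sum was 104.2 and 130 RPKM in control libraries 1 and 2 and 163.2 RPKM in pirfenidone library 3. The ratio of Igj to Cd79a was 12.0, 9.43 and 2.03 in TGFalpha pirfenidone lungs, 9.54, 3.30 and 4.65 in TGFalpha vehicle lungs and 1.33, 2.89 and 11.4 in control lungs. Each group thus held at least 1 library above 9 and 1 under 4. The ratio of Mzb1 to Cd79a was 0.89, 0.71 and 0.31 in TGFalpha pirfenidone lungs, 0.58, 0.26 and 0.40 in TGFalpha vehicle lungs and 0.23, 0.29 and 0.65 in control lungs, with the same high and low libraries. Per unit of Ptprc, Cd79a was at 0.56, 0.71 and 0.43 in TGFalpha pirfenidone lungs, above the 0.28, 0.34 and 0.38 of TGFalpha vehicle lungs. For Cd79b per unit of Ptprc these groups overlapped.

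**Figure D4:**
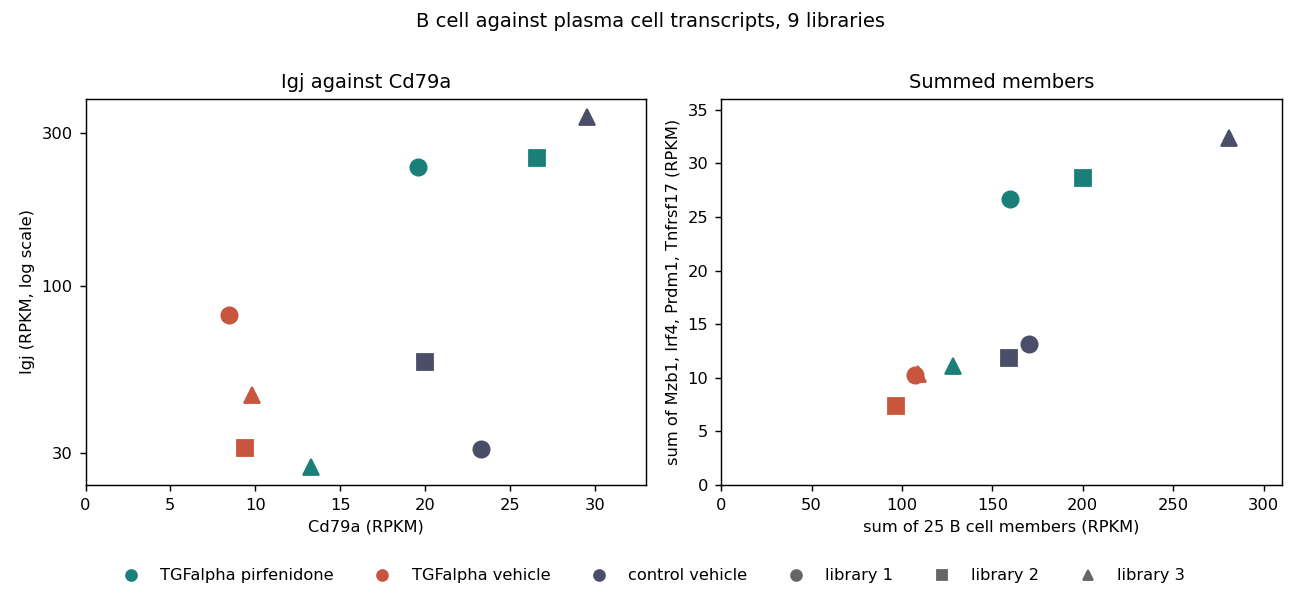
Left, Igj (RPKM, log scale) against Cd79a (RPKM) in the 9 libraries. Right, the summed RPKM of Mzb1, Irf4, Prdm1 and Tnfrsf17 against the summed RPKM of the 25 B cell members. Colours mark the groups (TGFalpha pirfenidone, TGFalpha vehicle, control) and symbols libraries 1, 2 and 3. Pirfenidone libraries 1 and 2 and control library 3 lie highest in both panels, and the TGFalpha vehicle libraries and pirfenidone library 3 lie furthest left. In the left panel, vehicle library 1 (Igj 80.6 RPKM) lies above control libraries 1 and 2. Control libraries 1 and 2 hold about as much Cd79a as pirfenidone libraries 1 and 2 with less Igj.

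The members differed in how far control library 3 stood above the mean of the other controls. The median ratio was 1.51 over the 25 B cell members and 3.10 over the 6 plasma cell members, beside 0.99 over all genes tested (on RPKM + 1). Pax5 was close to even, with 4.99 RPKM against 3.99 and 4.55 RPKM, while Igj had 337.8 RPKM against 30.9 and 57.7 RPKM. The same library had 905.7 RPKM summed over 10 pan-leukocyte genes, against 465.7 and 497.2 RPKM in the other controls, and 636.5 RPKM over 10 macrophage markers, against 212.1 and 223.2 RPKM. The pan-leukocyte and macrophage sums move with the members in this library, while some other lists ran the other way. The 6 natural killer markers summed to 49.4 RPKM there, against 76.6 and 63.1 RPKM in control libraries 1 and 2. The 6 endothelial markers summed to 977.1 RPKM, against 1457 and 1349 RPKM. The part of these cell types in the member values was not tested.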

How the data were processed

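Total RNA from lungs was extracted with a column kit and libraries followed standard Illumina protocols, per the labels. Per the submitters' processing notes, TopHat, bcl2fastq, DESeq and CASAVA 1.8 were used with build mm10. How reads were counted, and with which annotation, is not given in the sources used here. RPKM values were made and deposited by the authors in 1 table. Its header names no unit, which was settled from the values: 99.988% of them were whole numbers of reads (tolerance 0.001 reads) once divided by the worth of 1 read, and reads were recovered for 16163 of 16165 genes. A floor of 3 reads equals 0.159 to 0.263 RPM and covers counting error only. For 29 genes that lacked a symbol or held it as a date, RefSeq gave it by gene identifier.

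The limma-trend test (limma 3.58.1, R 4.3.3) was run on log2(RPKM + 1) in 1 model over all 9 libraries with group as its term (6 residual degrees of freedom, prior 2.67), two-sided, with Benjamini-Hochberg adjustment over 13849 genes. The filter was above 1 RPKM in at least 3 libraries. The steps were tested on simulated data. Alternatives were a pseudocount of 0.1, no filter, median-of-ratios scaling, a replicate block, fits of 2 groups alone, each library left out, and limma-voom on recovered reads. The last of these was added after seeing the data, except for the counts of lower members. Python 3.11.15 (numpy 2.4.6, pandas 2.3.3, matplotlib 3.10.9) was used for read recovery and figures. Promoters are from RefSeq.

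The members and gene lists were chosen with earlier results of these data known. The text names each member, of every list at most 2 called genes per direction and comparison by smallest adjusted p, and Cxcr5, Cxcl13, Tnfsf13b, Xbp1, Ptprc and Acta1. Other genes of a list stand as parts of a counted list or, like Cd3e in ratios, were named after their values were seen. A gene of the receptor signalling partners was left out of the list and its counts and is not reported here.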

Additional observations from a re-analysis of the deposited data

How the results depend on the processing

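The count of lower members in TGFalpha vehicle against control lungs (13) was 10 to 14 over all alternatives. The count of higher members there (2) was 1 with median-of-ratios scaling, 1 with the replicate block, 1 with 2 groups alone and 1 to 2 with 1 library left out. With 1 library left out, 0 to 10 members were higher in pirfenidone against vehicle, 2 to 3 lower and 0 to 2 higher in pirfenidone against control. Genes called over the whole table with 1 library left out numbered 1306 to 3763 for vehicle against control (3222 with all), 4 to 2111 for pirfenidone against vehicle (97) and 1101 to 3041 for pirfenidone against control (2545). For pirfenidone against vehicle they were 136 with median-of-ratios scaling (110 lower and 26 higher), 63 without a filter, 21 with the replicate block and 11 with 2 groups alone. The cause of these shifts was not tested, and fits that leave out 1 library also rest on fewer libraries.

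Replicate numbers were not taken as pairs, although correlations between libraries cannot exclude pairing. Same-numbered deviations correlated at 0.08, -0.02 and 0.12 between control and vehicle, 0.03, 0.04 and -0.02 between control and pirfenidone, and 0.41, -0.14 and 0.46 between vehicle and pirfenidone. Differently numbered libraries gave 0.47 for vehicle 1 with pirfenidone 2 and 0.39 for vehicle 2 with pirfenidone 3. The value was -0.61 for vehicle 1 with pirfenidone 3. With the replicate block, 12 members were lower and 1 higher in vehicle against control (all genes 3222), 0 and 0 in pirfenidone against vehicle, and 4 and 0 in pirfenidone against control (all genes 2483). In vehicle against control, the block ended the calls of Pou2af1 (adjusted p = 0.0737), Ciita (0.0594) and Cd40 (0.0788), and Ebf1 was called lower (0.0483).

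Fold changes that turned their sign, none of them called, are given as log2 ranges over the fits that leave out 1 library. In vehicle against control they were -0.361 to 0.004 for Tnfrsf13b, -0.194 to 0.004 for Cd180 and -1.51 to 0.194 for Igj, each above 0 without control library 3. In pirfenidone against vehicle they were -0.244 to 0.391 for Fcer2a (-0.012 with a pseudocount of 0.1), -0.015 to 0.296 for Cr2, -0.004 to 0.17 for Xbp1 and -2.277 to 2.556 for Acta1. In pirfenidone against control they were -0.175 to 0.6 for Blnk, -0.141 to 0.077 for Ebf1, -0.378 to 0.257 for Pou2af1, -0.227 to 0.58 for Tnfrsf13b (-0.036 with limma-voom), -0.452 to 0.156 for Irf4, -0.157 to 0.05 for Prdm1, -0.252 to 1.503 for Igj and -0.059 to 0.115 for Xbp1 (0.003 with limma-voom). At 1 to 20 reads, Tnfrsf17 is limited by depth in all 9 libraries.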

Other observations

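Spib is shared between B cells and plasmacytoid dendritic cells, and the plasmacytoid marker Siglech (a sialic acid-binding lectin) was lower in the same groups. Siglech had 1.64, 2.30 and 1.74 RPKM in TGFalpha pirfenidone lungs, 0.96, 1.23 and 1.33 RPKM in TGFalpha vehicle lungs and 4.79, 3.48 and 2.96 RPKM in control lungs. It fell in both comparisons with control (log2 fold change -0.70, SE 0.16, adjusted p = 0.0206 for pirfenidone, and -1.11, SE 0.16, adjusted p = 0.00355 for vehicle, limma). The first of these calls was lost without control library 1, control library 2 or pirfenidone library 1 (adjusted p = 0.0600 to 0.0707). Of 9 dendritic cell markers tested, 4 fell in TGFalpha vehicle lungs and 2 in TGFalpha pirfenidone lungs. Control library 3 was the highest control for Spib and the lowest for Siglech.

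The libraries rich in Igj were in part those rich in C1qa, which encodes a chain of complement C1q made by macrophages. C1qa had 289.3, 315.0 and 106.0 RPKM in TGFalpha pirfenidone lungs, 123.6, 89.2 and 107.2 RPKM in TGFalpha vehicle lungs and 38.3, 43.4 and 105.3 RPKM in control lungs. It was higher in TGFalpha pirfenidone than in control lungs (log2 fold change 1.91, SE 0.47, adjusted p = 0.0262, limma), a call lost without any 1 of control libraries 1 and 2 or pirfenidone libraries 1 and 2 (adjusted p = 0.0856 to 0.0942). In each group the library with the highest Igj was also the one with the highest C1qa. Marco, another macrophage marker, did not share this, with its lowest pirfenidone value (1.33 RPKM) in library 2 and its lowest vehicle value (4.57 RPKM) in library 1, the libraries with the highest Igj, and its highest control value (14.9 RPKM) in library 3.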
